A study of Arabidopsis thaliana with 12 samples.

Results

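The comparison described here is that of wild-type Arabidopsis roots treated with BiAux alone against mock-treated roots, across all genes. It uses 6 of the 12 libraries of the series, 3 labelled mock and 3 labelled BiAux, and 19338 of the 20814 genes in the deposited table. BiAux is a synthetic compound that carries a pair of linked indole units related to the auxin indole-3-acetic acid (IAA). The study asked which transcripts it changes in roots, as part of work on lateral root formation. Seedlings grew for 4 d, were moved for 3 d to fresh medium with mock or with 5 µM BiAux, and their roots were harvested for sequencing of poly(A) RNA. The other 6 libraries came from roots treated with 10 nM IAA, or with 5 µM BiAux plus 10 nM IAA, and are used only where they are named. All 12 libraries are wild type, with no transgene or mutant allele in their labels, and each is RNA of whole roots. The labels do not say that the 3 libraries of a treatment came from separate cultures, so the p-values measure only the spread between these libraries, which may be technical.

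Auxin acts by joining a TIR1/AFB receptor to an Aux/IAA repressor, which is then degraded and frees the auxin response factors that switch on auxin-responsive genes, among them the Aux/IAA genes and the GH3 genes whose enzymes inactivate auxin. Phosphate shortage is read by a different system in roots: the transcription factor PHR1, held back by SPX proteins when phosphate is plentiful, binds an element called P1BS and switches on transporters, phosphatases and enzymes that replace phospholipids by glycolipids. A further program, the mitochondrial dysfunction stimulon, is driven by membrane-bound NAC transcription factors when mitochondrial respiration is disturbed, through an element named the mitochondrial dysfunction motif. Genes of these programs and of other hormone and nutrient responses were followed here as lists.

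Before any result, a conflict in the labels has to be stated. Treatments were taken from the library titles, but the separate treatment field names another treatment than the title in 7 of the 12 libraries, among them 1 of the mock libraries (mock 3) and all 3 of those titled BiAux. The text therefore speaks of the libraries labelled BiAux by their titles, and every direction below depends on those titles. No gene was deleted or silenced in this design, so the titles could not be checked on a targeted gene.

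The deposited values are normalized counts on the log2 scale, and out of that scale they summed to between 32413978 and 32720463 per library. How many reads lie behind them is not known, and no counting error can be given. Genes of the organelles took 0.469% to 0.651% of the normalized counts, between 41 and 141 genes per library were at 0, and no gene in the table is under 3 in the library IAA 3, so genes with almost no reads there are missing. The 12 markers of root tissues were all present, with summed levels of 411561 to 467953 normalized counts in mock and 425762 to 473854 in BiAux, most of it PYK10. Without PYK10 the sums were 69793 to 88912 in mock and 73271 to 86311 in BiAux. An unadjusted limma p under 0.05 was found for 5 of the 12, against 17.5% of all tested genes. Of these root markers 1 (8.33%), the quiescent centre gene WOX5, was called lower, against 0.988% of all tested genes. Its log2 fold change was -0.54 ± 0.13 (SE), at a limma adjusted p of 0.0497 (0.0689 without number 1). Among 10 listed markers of photosynthetic shoot tissue, 6 were in the table and tested, and their summed level was 2034 to 2079 normalized counts in the mock libraries and 1291 to 1335 in those labelled BiAux.

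Mock 1 and BiAux 1 stood apart from the other libraries in the same way. The deviation of each library from its group mean, taken across genes, correlated between mock 1 and BiAux 1 at 0.78, between mock 2 and BiAux 2 at 0.41 and between mock 3 and BiAux 3 at 0.58, whereas mock 1 correlated with BiAux 2 at -0.67 and with BiAux 3 at -0.69. The correlation between mock 2 and BiAux 3 was 0.48 and that between mock 3 and BiAux 2 was 0.62, so numbers 2 and 3 could not be told from each other in this way. These correlations are across genes, which are not independent. Deviations within a group cancel out, so the negative values for number 1 and the positive ones among numbers 2 and 3 largely follow from the 0.78. They are not separate observations. BiAux 2 and BiAux 3 were the closest pair of libraries, with a median squared difference of 1.62 times the counting variance that the normalized counts would have if they were reads, against 3.97 for mock 1 and BiAux 1, 5.62 for mock 2 and mock 3, and 17.5 and 18.9 for BiAux 1 against BiAux 3 and BiAux 2. The replicate number was fitted as a block because mock 1 and BiAux 1 deviated together, and results are also given without number 1.

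**Figure D1:**
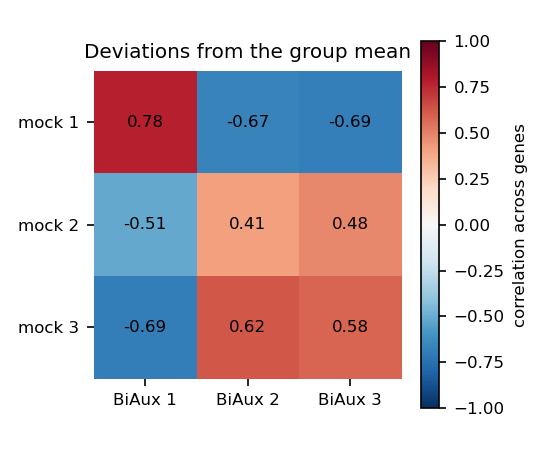
Correlation across genes of each mock library's deviation from the mock mean (rows) with each BiAux library's deviation from the BiAux mean (columns), on a colour scale from -1 to 1. Mock 1 and BiAux 1 deviated together (0.78). The values of 0.41 to 0.62 among the remaining 4 libraries largely follow from this, as deviations within a group cancel out.

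Few genes passed the limits of a call, although 17.5% of all tested genes had an unadjusted limma p under 0.05. More of the called genes were lower than higher in the libraries labelled BiAux. A gene was called when its limma p, adjusted over all 19338 tested genes by the Benjamini-Hochberg method, was under 0.05 and its log2 fold change was above 0.5 or below -0.5, on the scale of log2(normalized count + 16.3), on which changes of genes with low values come out too small. On these terms 80 genes were higher (0.414% of those tested) and 191 were lower (0.988%), or 271 in all (1.40%). A fold change above 2 was reached by 17 of the higher and 50 of the lower genes. The 3 mock and 3 BiAux values did not overlap for 71 of the 80 higher and 145 of the 191 lower genes, against 3.45% of all tested genes with BiAux above and 6.29% with BiAux below. The median change of all tested genes was -0.04, with 37.5% of genes above 0 and the 10th and 90th percentiles at -0.21 and 0.14. With median-of-ratios scaling, which moved that median by 0.05, 115 genes were higher and 176 lower, so that 39.5% of calls were higher in place of 29.5%.

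These counts rest on the replicate block. Without it, only 4 genes were higher and 2 lower, while at an unadjusted p under 0.05 the same fold limits gave 118 higher and 287 lower genes with the block and 98 higher and 209 lower without. The 6 genes called in the absence of the block were AT5G24240, AT1G75945, AT5G26270 and AT2G01422, all higher, and AT1G36240 and PLA2A, both lower, and all 6 were also called with it. Leaving out mock 1 and BiAux 1 together gave 89 higher and 229 lower genes. Of the genes called with all 6 libraries, 55 of 80 and 164 of 191 were called again, and all 80 and all 191 kept their direction. Without number 2 the counts were 22 and 88, and without number 3 they were 133 and 136.

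**Figure D2:**
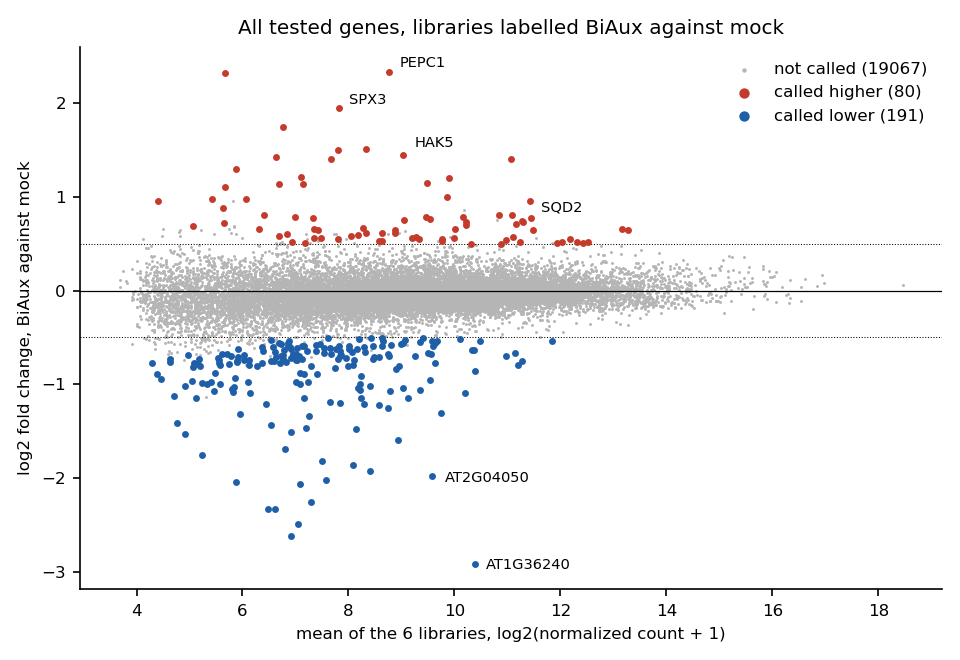
Log2 fold change, BiAux against mock, of the 19338 tested genes against their mean over the 6 libraries as log2(normalized count + 1), with dotted lines at 0.5 and -0.5. Red points are the 80 genes called higher, blue points the 191 called lower and grey points the rest, and labels mark genes described in the text, from AT1G36240 at -2.92 to PEPC1 at 2.34.

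Among the lists, which were chosen with earlier results of these data known, those of the phosphate starvation response held the most higher genes. Of 39 genes listed for this response, regulators such as PHR1 and PHO2 among them, 35 were tested. Of the 35, 19 (PHO2 included) were higher and 0 lower, against 0.414% higher among all tested genes. Their median change was 0.56, against -0.04 for all genes, 33 of the 35 were above 0, and all BiAux values lay above all mock values for 24, against 3.45% of all tested genes. BiAux 1 was the highest of the 3 BiAux libraries for 28 of the 35, and without number 1 the count of higher members was 12 and the median change 0.38. The 7 that then lost their call were AT4, PHO2, PHT1;4, PAP17, PLDP2, SQD1 and SRG3, with changes of 0.37 to 0.48, below the fold limit, and adjusted p-values of 0.00195 to 0.0495. Without number 2 the count was 1, without number 3 it was 22, and without the block it was 0, where 19 members passed at an unadjusted limma p under 0.05 and the same fold limit (20 with the block).

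The promoters of 5 genes are shown first, because they belong to genes the results turn on and hold the element that defines their program. Each is the 250 bases before the gene's start in the RefSeq annotation of TAIR10.1, read 5′ to 3′ on the gene's strand, with matches to an element in capitals. P1BS was searched as GNATATNC, which is its own reverse complement. SPX3 (chr2:18606160-18606409, plus strand) held P1BS matches starting 213 and 90 bases before the gene, SRG3 (chr3:350011-350260, minus strand) held them at 127 and 63 bases, and AT4 (AT5G03545, chr5:894332-894581, plus strand) held 1 at 26 bases.
SPX3: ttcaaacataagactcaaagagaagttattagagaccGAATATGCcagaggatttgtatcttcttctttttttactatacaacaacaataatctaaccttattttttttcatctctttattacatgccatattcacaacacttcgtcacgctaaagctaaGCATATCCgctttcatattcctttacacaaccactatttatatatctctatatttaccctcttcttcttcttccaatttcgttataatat
SRG3: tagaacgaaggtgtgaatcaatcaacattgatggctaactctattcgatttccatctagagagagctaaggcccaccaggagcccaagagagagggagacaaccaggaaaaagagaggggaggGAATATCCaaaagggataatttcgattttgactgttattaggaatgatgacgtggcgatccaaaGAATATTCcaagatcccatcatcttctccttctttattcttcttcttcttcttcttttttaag
AT4: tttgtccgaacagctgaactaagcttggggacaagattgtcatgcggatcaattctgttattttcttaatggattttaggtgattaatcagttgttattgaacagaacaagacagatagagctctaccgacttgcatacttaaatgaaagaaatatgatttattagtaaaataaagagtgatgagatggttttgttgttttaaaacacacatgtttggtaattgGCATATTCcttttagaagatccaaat
The remaining pair belongs to genes of the mitochondrial dysfunction list, and their capitals mark the mitochondrial dysfunction motif, searched on both strands. AT2G04050 (chr2:1339469-1339718, minus strand) held matches starting 215 and 156 bases before the gene, and AT2G21640 (chr2:9254128-9254377, plus strand) held 1 at 51 bases.
AT2G04050: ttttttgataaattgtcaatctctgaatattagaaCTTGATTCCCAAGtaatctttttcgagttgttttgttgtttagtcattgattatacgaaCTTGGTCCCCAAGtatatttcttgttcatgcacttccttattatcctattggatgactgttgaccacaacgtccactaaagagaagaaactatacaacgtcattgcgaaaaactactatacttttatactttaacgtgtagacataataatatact
AT2G21640: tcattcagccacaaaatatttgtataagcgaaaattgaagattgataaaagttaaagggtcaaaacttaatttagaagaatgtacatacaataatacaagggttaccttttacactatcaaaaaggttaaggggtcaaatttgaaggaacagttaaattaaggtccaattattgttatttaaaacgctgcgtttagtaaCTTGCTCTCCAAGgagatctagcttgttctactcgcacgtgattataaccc
Over the promoters of tested genes with a complete gene model, P1BS occurred in 948 of 17240 (5.50%), in 17 of 68 genes called higher (25%), and in 13 of 176 called lower (7.39%). By list it occurred in 8 of 32 tested phosphate genes (25%), in 7 of the 16 called higher (43.8%), in 3 of 18 tested mitochondrial dysfunction genes (16.7%) and in 3 of the 10 called lower (30%). The mitochondrial dysfunction motif occurred in 152 of 17240 (0.882%), in 0 of 68 genes called higher, in 15 of 176 called lower (8.52%), in 6 of 18 tested mitochondrial dysfunction genes (33.3%), in 3 of the 10 called lower (30%) and in 0 of 32 tested phosphate genes. A match is a description of these letters and not a bound site. PHO2, MGD3 and PEPC1 are among the called phosphate genes without a P1BS match in this window.

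Within phosphate signalling, 5 of 9 tested members were higher, with a median change of 0.52. SPX3, an SPX-domain protein that restrains the phosphate response, was at 61, 68 and 80 normalized counts in mock 1 to 3 and at 726, 222 and 189 in BiAux 1 to 3. All BiAux libraries were above all mock libraries, and BiAux 1 was the highest by far. The log2 fold change was 1.95 ± 0.31 (SE, 3 against 3 libraries, limma adjusted p = 0.00787), and the gene was 3.87-fold higher, or 2.46-fold without number 1 (adjusted p = 4.16e-05). IPS1, a non-coding RNA that sequesters the microRNA miR399, was at 131, 143 and 194 in mock and at 669, 386 and 396 in BiAux, again without overlap. Its change was 1.51 ± 0.18 (adjusted p = 0.00167), and 1.15 without number 1. SPX1, a partner of PHR1, was at 1779, 1480 and 2242 in mock and at 5252, 2911 and 2863 in BiAux, a change of 0.96 ± 0.16 (adjusted p = 0.0106). AT4 (AT5G03545), a relative of IPS1, had the largest normalized counts of these, 5602, 7637 and 10261 in mock and 11649 to 12118 in BiAux, with a change of 0.65 ± 0.12 (adjusted p = 0.0208). The BiAux libraries lay close together for AT4, and its mock libraries spread more widely. PHO2, the ubiquitin conjugase that miR399 targets, was at 2895, 5525 and 6316 in mock and at 5116, 7511 and 7857 in BiAux, and here the groups overlapped although each BiAux library was above the mock library of its number (0.52 ± 0.09, adjusted p = 0.00922). The regulator PHR1 itself was at 1531 to 1709 in mock and 1466 to 1721 in BiAux (0.01 ± 0.06), its homologue PHL1 at 686 to 792 and 670 to 791, and SPX4 changed by -0.19 ± 0.08 with an adjusted p of 0.26.

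Of the transport genes 3 of 9 were higher, with a median change of 0.38. PHT1;8, a phosphate transporter, was at 69, 77 and 91 normalized counts in mock and at 298, 151 and 156 in BiAux (1.14 ± 0.20, adjusted p = 0.0127). PHT1;2 was at 124, 69 and 72 in mock and at 226, 128 and 138 in BiAux (0.78 ± 0.11, adjusted p = 0.00438), and it shares nearly identical sequence with other PHT1 copies, so its reads may be split among them. PHT1;4 was at 3721, 3125 and 3260 in mock and at 6539, 4033 and 4234 in BiAux (0.52 ± 0.08, adjusted p = 0.009). The 3 transporters did not overlap between the groups, and number 1 gave the highest BiAux value in each. PHT1;1, PHF1 and PHO1;H1 had adjusted p-values of 0.034, 0.0281 and 0.0448 at changes of 0.29, 0.31 and 0.32, below the fold limit. PHO1, which loads phosphate into the xylem, was at 13353 to 17341 in mock and 13051 to 17114 in BiAux.

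Phosphate recovery and lipid remodelling held the largest rise of the phosphate lists, with 11 of 17 tested members higher and a median of 0.59. PEPC1 (AT1G17710 in RefSeq), a phosphatase that acts on phosphocholine and phosphoethanolamine, was at 74, 94 and 152 normalized counts in mock and at 1584, 361 and 343 in BiAux. BiAux 1 stood far above BiAux 2 and 3, which still exceeded every mock library. Its change was 2.34 ± 0.41 (adjusted p = 0.0137), and 1.43 without number 1. PS2, a pyrophosphatase, was at 439, 558 and 655 in mock and at 2068, 1016 and 977 in BiAux (1.20 ± 0.23, adjusted p = 0.0199). SRG3, a glycerophosphodiester phosphodiesterase, was at 1997, 1593 and 1847 in mock and at 4800, 2403 and 2388 in BiAux (0.74 ± 0.13, adjusted p = 0.0131).
The enzymes that make glycolipids in place of phospholipids followed. SQD2, the sulfolipid synthase, was at 2443, 1779 and 1819 in mock and at 4867, 2903 and 2836 in BiAux (0.78 ± 0.07, adjusted p = 0.000231), the smallest p of the phosphate genes. SQD1, which makes the sulfolipid head group, was at 703, 800 and 970 in mock and at 1342, 1152 and 1146 in BiAux (0.56 ± 0.11, adjusted p = 0.0202). MGD3, a galactolipid synthase, was at 65, 83 and 67 in mock and at 321, 152 and 132 in BiAux (1.22 ± 0.21, adjusted p = 0.0137). These groups did not overlap for any of the 3 enzymes. MGD2, NPC4, PLDP2, PAP17 and PS3 were also higher, by 0.57 to 0.74 on the log2 scale with adjusted p-values of 0.00239 to 0.0179. PAP10, PAP12, PAP22, RNS1, DGD2 and PAH1 were not called, and the highest change among them was 0.42 for RNS1.

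**Figure D3:**
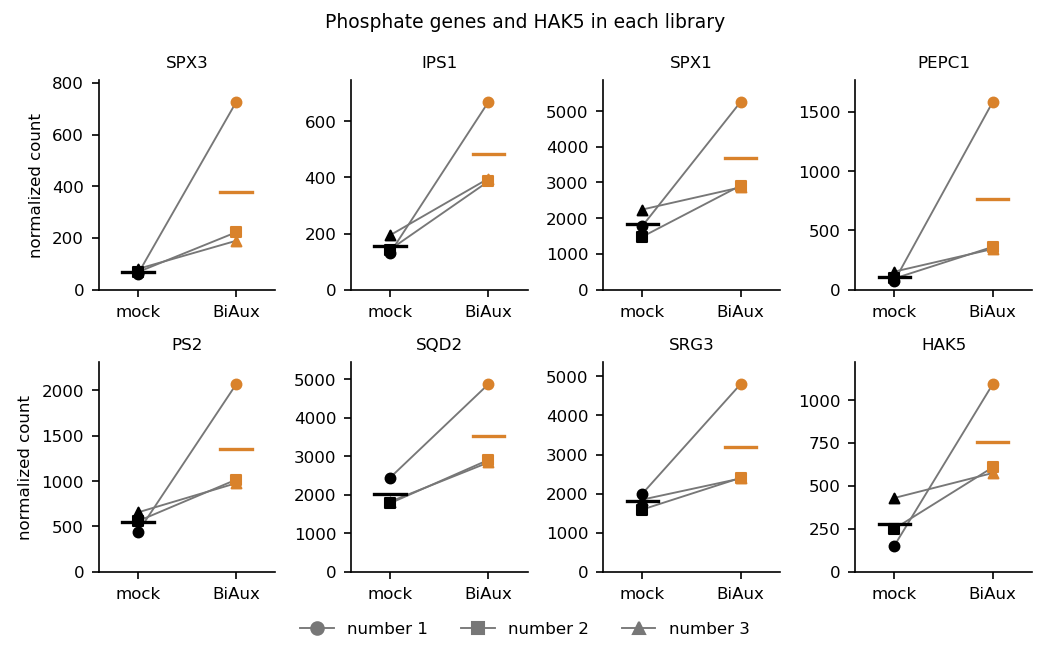
Normalized counts of 7 phosphate genes and HAK5 in each mock (black) and BiAux (orange) library on linear axes from 0, with marker shapes and grey lines for libraries of the same number and bars for the group means. BiAux 1 was the highest library in each panel, from 669 for IPS1 to 5252 for SPX1, and the groups did not overlap.

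The other nutrient lists held fewer called genes than the phosphate lists. In potassium 14.3% and in nitrate 11.8% of tested members were higher, against 0.414% of all tested genes. Of 7 potassium genes only the high-affinity potassium transporter HAK5 was higher, at 153, 251 and 430 normalized counts in mock and at 1092, 608 and 575 in BiAux, without overlap. Its change was 1.45 ± 0.30 (adjusted p = 0.0298), and 0.81 without number 1. Of 17 nitrate genes 2 were higher, with a median of 0.13: the nitrate reductase NIA1 was at 4222, 4760 and 4701 in mock and at 7280, 6054 and 6135 in BiAux (0.50 ± 0.08, adjusted p = 0.00911, but only 0.36 without number 1), and the nitrate transporter NRT2:1 was at 88, 77 and 71 in mock and at 129, 119 and 130 in BiAux (0.59 ± 0.12, adjusted p = 0.0297). Among 18 tested iron deficiency genes and 12 tested sulfur deficiency genes none was called by limma, with medians of -0.06 and -0.01, and 4 and 3 members had an unadjusted p under 0.05, against 17.5% of all tested genes. The adjusted p was under 0.05 but the fold limit was not reached for 2 of the iron genes and 1 of the sulfur genes, all below 0. For the nicotianamine synthase NAS4 the change was 0.61 ± 0.15 at an adjusted p of 0.0532.

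Several of the higher genes belonged to no list and differed by nearly the same amount in every pair of libraries. AT5G24240, annotated as a phosphatidylinositol 4-kinase gamma-like protein, was at 1315, 1084 and 1123 normalized counts in mock and at 3372, 3014 and 2987 in BiAux. The mock libraries agree within a narrow range far below the BiAux libraries, and the change of 1.40 ± 0.06 had the smallest p of all higher genes (adjusted p = 9.91e-07, and 0.0185 without the block). AT1G75945, an uncharacterized protein, was at 102, 110 and 100 in mock and at 283, 307 and 317 in BiAux (1.40 ± 0.10, adjusted p = 5.65e-05, and 0.0222 without the block). AT5G26270, also uncharacterized, was at 849, 845 and 811 in mock and at 1490, 1417 and 1438 in BiAux (0.78 ± 0.06, adjusted p = 7.65e-05, and 0.0489 without the block). In none of these did BiAux 1 stand apart, unlike in the phosphate genes. AT2G01422, an RNA of no further annotation that was chosen after its values were seen, was at 7, 5 and 4 in mock and at 70, 127 and 85 in BiAux (2.32 ± 0.19, adjusted p = 7.93e-05).

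The other large rises had their highest value in BiAux 1. ACA1, an alpha carbonic anhydrase, was at 102, 84 and 125 normalized counts in mock and at 535, 259 and 237 in BiAux (1.51 ± 0.20, adjusted p = 0.00274). AT5G20790, uncharacterized, was at 410, 345 and 572 in mock and at 1262, 921 and 802 in BiAux (1.15 ± 0.16, adjusted p = 0.00426). AT3G43960, a cysteine proteinase, was at 739, 603 and 494 in mock and at 1652, 1045 and 1055 in BiAux (1.00 ± 0.08, adjusted p = 8.63e-05). The groups were apart for all of them. AT3G45070, a nucleoside triphosphate hydrolase family protein, was at 1540, 1194 and 1189 in mock and at 3370, 1880 and 1887 in BiAux (0.81 ± 0.09, adjusted p = 0.000775).
A few higher genes outside the rule for naming were chosen after their values were seen. The malate channel ALMT1 was at 1488, 1537 and 1700 in mock and at 3506, 2434 and 2455 in BiAux (0.80 ± 0.11, adjusted p = 0.00316). G3Pp3, a relative of PS3 in the glycerol-3-phosphate permease family, was at 23, 21 and 31 in mock and at 137, 55 and 78 in BiAux (2.46-fold higher, adjusted p = 0.00713). RSL2, a transcription factor of root hair growth, was at 1099, 729 and 582 in mock and at 1625, 1050 and 1099 in BiAux (0.66 ± 0.08, adjusted p = 0.00188), where the groups overlapped. None of the 7 tested members of the root hair list was called, and their median was 0.14. The ethylene synthesis gene ACS5 and the cytokinin hydroxylase CYP735A2 changed by 0.67 and 0.57, with adjusted p-values of 0.00549 and 0.00461, and CYP735A2 by 0.49 without number 1.

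The largest change in the comparison was a fall. AT1G36240 (chr1:13614890-13616233, plus strand) encodes a copy of ribosomal protein L30 of the large cytosolic subunit, and the first 120 coding bases of its 3 copies are shown because reads from a copy could be counted for another. Capitals mark the 25 positions that are not shared by all 3, counted over these bases.
AT1G36240: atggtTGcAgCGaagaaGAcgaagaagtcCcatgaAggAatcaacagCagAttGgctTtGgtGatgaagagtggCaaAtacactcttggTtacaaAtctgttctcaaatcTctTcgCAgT
AT1G77940: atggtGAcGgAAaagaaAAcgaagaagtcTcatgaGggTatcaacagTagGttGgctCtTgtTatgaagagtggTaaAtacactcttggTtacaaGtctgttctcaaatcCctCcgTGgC
AT3G18740: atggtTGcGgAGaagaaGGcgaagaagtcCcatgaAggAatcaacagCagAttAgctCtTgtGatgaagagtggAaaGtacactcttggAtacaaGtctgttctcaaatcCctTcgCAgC
AT1G36240 was at 2205, 2597 and 2348 normalized counts in mock and at 250, 338 and 317 in BiAux. The groups were far apart, and no library stood out in either. It was 7.59-fold lower, a log2 fold change of -2.92 ± 0.07 (adjusted p = 7.34e-09, and 0.0011 without the block), and -2.85 without number 1. The copies with larger counts were not called. AT1G77940 was at 12997, 16281 and 15233 in mock and at 12970, 14471 and 14085 in BiAux (-0.10), and AT3G18740 at 6648, 7444 and 7433 in mock and at 6105, 6850 and 6255 in BiAux (-0.16). Over the 339 coding bases AT1G36240 was 81.7% identical to AT1G77940 and 89.1% identical to AT3G18740, with longest identical runs of 20 and 34 bases, and no window of 100 bases was identical to either copy. In the libraries labelled IAA this gene was at 1748, 1709 and 2076, and in those labelled BiAux+IAA at 388, 221 and 279.

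The mitochondrial dysfunction list, also chosen with earlier results of these data known, held the most lower genes. Of 19 tested members 10 were lower and 0 higher, against 0.988% lower among all tested genes, with a median of -0.59. Without number 1 the count was 11, without number 2 it was 6, without number 3 it was 9, and without the block it was 0, where 9 passed at an unadjusted limma p under 0.05 and the same fold limit (10 with the block). AOX1D, an alternative oxidase of the mitochondrial inner membrane, was at 166, 288 and 351 normalized counts in mock and at 27, 45 and 54 in BiAux. The groups were far apart in every library, and the change was -2.26 ± 0.12 (adjusted p = 6.32e-06). AT5G09570, a small protein with paired cysteine motifs, was at 159, 285 and 241 in mock and at 37, 38 and 48 in BiAux (-2.06 ± 0.15, adjusted p = 5.65e-05). AT2G21640, a marker of oxidative stress of unknown function, was at 359, 571 and 698 in mock and at 85, 170 and 137 in BiAux (-1.92 ± 0.11, adjusted p = 1.14e-05). In each of these the mock library of number 1 was the lowest of the mock libraries.
MATE efflux carrier genes that lie close together on chromosome 2 were lower too. AT2G04050 was at 650, 1444 and 1617 in mock and at 186, 322 and 361 in BiAux (-1.98 ± 0.09, adjusted p = 2.07e-06). AT2G04070 was at 184, 368 and 392 in mock and at 32, 71 and 94 in BiAux (-2.03 ± 0.11, adjusted p = 6.79e-06). DTX1 (AT2G04040), an efflux carrier of toxic compounds, was at 268, 371 and 403 in mock and at 169, 210 and 197 in BiAux (-0.79 ± 0.10, adjusted p = 0.00232). The 3 genes are neighbouring copies, and how reads shared by such copies were counted is not given in the sources used here, so their values are not independent. The alternative NAD(P)H dehydrogenases NDB4 and NDA1 fell by 1.09 and 0.88 on the log2 scale, the glucosyltransferase UGT74E2 by 0.70 and the AAA ATPase BCS1 by 0.59. The NDB4 groups overlapped, at 40 to 149 in mock and 14 to 49 in BiAux.
Not all of the list moved. AOX1A, another alternative oxidase, was at 2766 to 3012 in mock and 2505 to 2627 in BiAux (-0.17 ± 0.06, adjusted p = 0.137). NAC017, a regulator of this program, was at 2520 to 2648 in mock and 2457 to 2703 in BiAux, and the change of NAC013 was -0.32 ± 0.09 with an adjusted p of 0.0943. SOT12 and AT5G51440 had adjusted p-values of 0.00724 and 0.0282 at changes of -0.47 and -0.39, short of the fold limit.

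**Figure D4:**
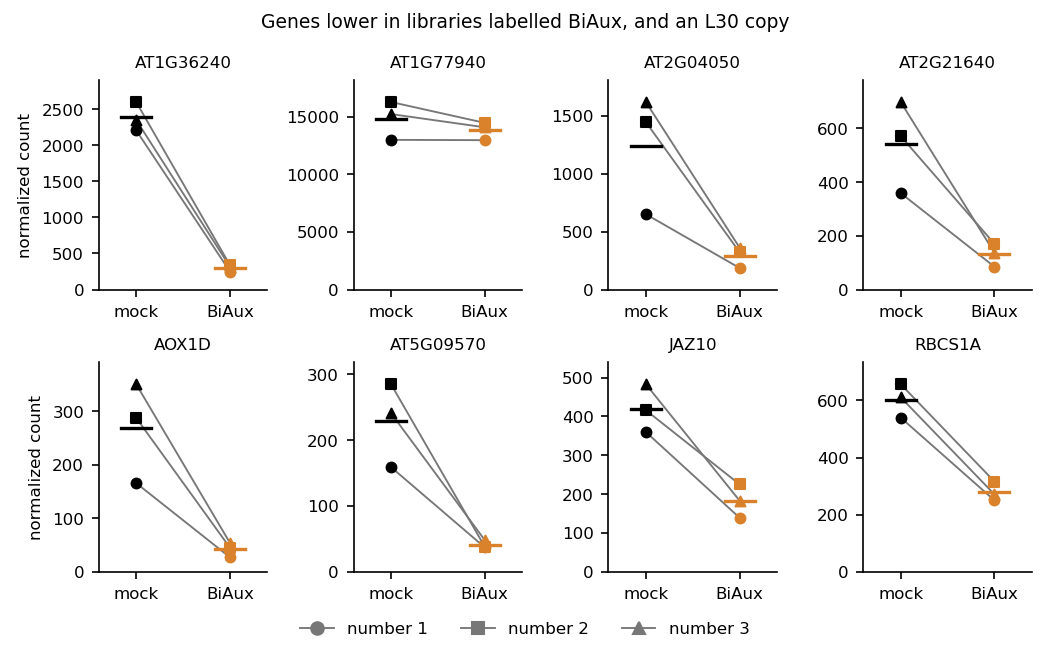
Normalized counts of 7 genes called lower and of the L30 copy AT1G77940, which was not called, in each mock (black) and BiAux (orange) library on linear axes from 0, with marker shapes and grey lines for libraries of the same number and bars for the group means. AT1G36240 was at 250 to 338 in BiAux against 2205 to 2597 in mock, and the 7 lower genes did not overlap between the groups.

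The lower genes outside the lists that are named next had varied annotations. DIN2, a beta-glucosidase induced in darkness, was at 282, 434 and 583 normalized counts in mock and at 71, 117 and 127 in BiAux (-1.86 ± 0.11, adjusted p = 7.40e-06). AT5G43450, a 2-oxoglutarate-dependent oxygenase, was at 562, 794 and 853 in mock and at 163, 269 and 272 in BiAux (-1.60 ± 0.08, adjusted p = 5.03e-06). PLA2A, a patatin-like phospholipase of defence responses, was at 511, 561 and 537 in mock and at 239, 193 and 233 in BiAux (-1.22 ± 0.10, adjusted p = 8.81e-05, and 0.0469 without the block). These groups did not overlap, and PLA2A varied the least within each. TI1, a trypsin inhibitor, was at 933, 1113 and 1673 in mock and at 380, 530 and 538 in BiAux (-1.31 ± 0.10, adjusted p = 5.69e-05). AT1G33790, a jacalin lectin, was at 157, 479 and 649 in mock and at 54, 173 and 183 in BiAux (-1.48 ± 0.11, adjusted p = 5.69e-05), and its groups overlapped because mock 1 was below BiAux 2 and 3. AT3G54530, AT2G41730 and AT3G19200 changed by -1.82, -1.25 and -1.21, each without overlap.
Some lower genes of strong change had a mean below the 162.9 normalized counts set for naming, or a smaller change, and were chosen after their values were seen. DOGT1, a glucosyltransferase of toxins and brassinosteroids, was at 109, 270 and 282 in mock and at 12, 21 and 27 in BiAux (-2.62 ± 0.16, adjusted p = 1.69e-05). SAG13, a senescence-associated gene, was at 152, 228 and 319 in mock and at 13, 42 and 29 in BiAux (-2.49 ± 0.16, adjusted p = 1.87e-05). SEN1, induced by darkness and senescence, was at 925, 746 and 991 in mock and at 436, 442 and 365 in BiAux (-1.06 ± 0.11, adjusted p = 0.000479). The berberine-type oxidases AT1G26380, AT1G26390 and AT1G26410, which are neighbours on chromosome 1 and may share reads, changed by -1.19, -1.20 and -1.34. Of 12 tested tau glutathione transferases, enzymes that conjugate toxic compounds, GSTU3 and GSTU4 were lower (-1.13 and -0.62), with a median of -0.24. That is 16.7% of the list, and for hypoxia below it was 12.5%, against 0.988% lower among all tested genes. The hypoxia list had 2 of 16 members lower, the transcription factor HRE2 (62, 87 and 94 in mock against 18, 41 and 32 in BiAux) and the alcohol dehydrogenase ADH1 (166, 197 and 251 against 109, 148 and 134), with a median of -0.16.

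Of 6 tested markers of photosynthetic shoot tissue 2 were lower (33.3%, against 0.988% of all tested genes). RBCS1A, a small subunit of Rubisco, was at 540, 657 and 611 normalized counts in mock and at 250, 316 and 271 in BiAux (-1.07 ± 0.08, adjusted p = 5.69e-05). LHCB1.3, a chlorophyll-binding protein of photosystem II, was at 397, 385 and 419 in mock and at 182, 197 and 197 in BiAux (2-fold lower, with an SE of 0.09 on the log2 scale and an adjusted p of 0.000205). Both were apart in all libraries, with little spread in either group. The other 4 were not called, and the median of the 6 was -0.41. Further photosynthesis genes outside the list were called as well, among them LHCA2, LHCB5, PSAL, PSAH-1, PSBW and GAPB. So were ATML1 and PDF2, and these calls were not followed further here. RBCS1B, RBCS3B, LHCB1.1 and CA1 were not analysed here. In RNA of whole roots, fewer cells of a type and less RNA per cell cannot be told apart, and the part of any shoot tissue in the lower genes was not tested.

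The auxin genes called were all lower, 7.14% of tested Aux/IAA repressor and 28.6% of auxin inactivation genes, against 0.988% of all tested genes. None of the 8 receptors and response factors was called by limma, and 2 had an unadjusted p under 0.05: TIR1 was at 3231, 4326 and 3991 normalized counts in mock and at 3206, 3786 and 3989 in BiAux, and the list's changes lay between -0.30 and 0.01. Of 14 tested Aux/IAA repressor genes IAA1 was lower, at 216, 219 and 256 in mock and at 152, 162 and 157 in BiAux (-0.51 ± 0.10, adjusted p = 0.0279), and the median was -0.05. IAA2 had an adjusted p of 0.0402 at a change of -0.36, while IAA28 was at 2660 to 3235 in mock and 2834 to 3386 in BiAux. Of 7 auxin inactivation genes the conjugating enzymes GH3.3 (121, 165 and 205 in mock against 58, 105 and 116 in BiAux) and GH3.1 (219, 332 and 309 against 132, 192 and 184) were lower, by -0.74 ± 0.12 and -0.70 ± 0.10, with adjusted p-values of 0.00856 and 0.0032. GH3.5 changed by -0.45 (adjusted p = 0.00413), and the list's median was -0.19. Outside the lists, and chosen after their values were seen, the kinase gene PID, its binding partner PBP1, the homeobox gene HAT1 and the auxin synthesis gene TAA1 were lower by -0.72, -0.62, -0.54 and -0.50.

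The lateral root formation list, which bears on the phenotype the study followed, held 1 called gene among 19 tested (5.26% higher, against 0.414% of all tested genes). This was AT5G14650, a pectin lyase-like protein, at 143, 109 and 136 normalized counts in mock and at 215, 229 and 192 in BiAux (0.65 ± 0.12, adjusted p = 0.0202). Of all 19 members 17 were below 0, with a median of -0.27. An unadjusted limma p under 0.05 was reached by 10 of the 19, against 17.5% of all tested genes. LBD16, a target of the response factors ARF7 and ARF19 in founder cells, was at 414, 411 and 478 in mock and at 317, 382 and 333 in BiAux, and its change of -0.32 ± 0.10 had an adjusted p of 0.111. GATA23, a marker of founder cells, was at 54, 27 and 45 in mock and at 29, 39 and 31 in BiAux, and PUCHI at 156, 183 and 264 against 120, 170 and 175, both with overlap. PLT3 and EXPA1 passed the adjusted p (0.011 and 0.0227) at changes of -0.38 and -0.44, below the fold limit. None of 14 mitotic cell cycle genes was called by limma, 2 had an unadjusted p under 0.05, and their median was -0.10.

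Jasmonate genes lay below the median of all genes, with 2 of 18 tested members lower (11.1%, against 0.988% of all tested genes). JAZ10, a repressor of jasmonate signalling that jasmonate itself induces, was at 360, 416 and 483 normalized counts in mock and at 139, 225 and 183 in BiAux (-1.15 ± 0.11, adjusted p = 0.000318). JAZ9 was at 356, 346 and 332 in mock and at 232, 195 and 177 in BiAux (-0.74 ± 0.10, adjusted p = 0.00256). Both were apart in all libraries. An adjusted p under 0.05 was reached by 6 members, all below 0, among them JAZ2 at -0.50 and the synthesis genes OPR3 and AOS at -0.41 and -0.30, and the median was -0.29. VSP2, a late jasmonate response gene, was at 406, 391 and 423 in mock and at 451, 201 and 185 in BiAux, so BiAux 1 went the other way.
The lists for ferritin, both glucosinolate branches, the morning and evening clock, cytokinin response regulators, abscisic acid, salicylate and camalexin defence, flavonoids, the Casparian strip, suberin and the heat response held no called gene. Their medians ran from -0.33 for salicylate and camalexin defence to 0.37 for aliphatic glucosinolates. Over all 17 lists without a call, 49 of 147 tested members had an unadjusted limma p under 0.05, against 17.5% of all tested genes, and of these 3 were above and 2 below the fold limits. In the latter list mock 1 was the lowest library for the condensing enzymes MAM1 (418, 677 and 1005 in mock against 896, 1019 and 960 in BiAux) and MAM3, and no adjusted p was under 0.05.

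**Figure D5:**
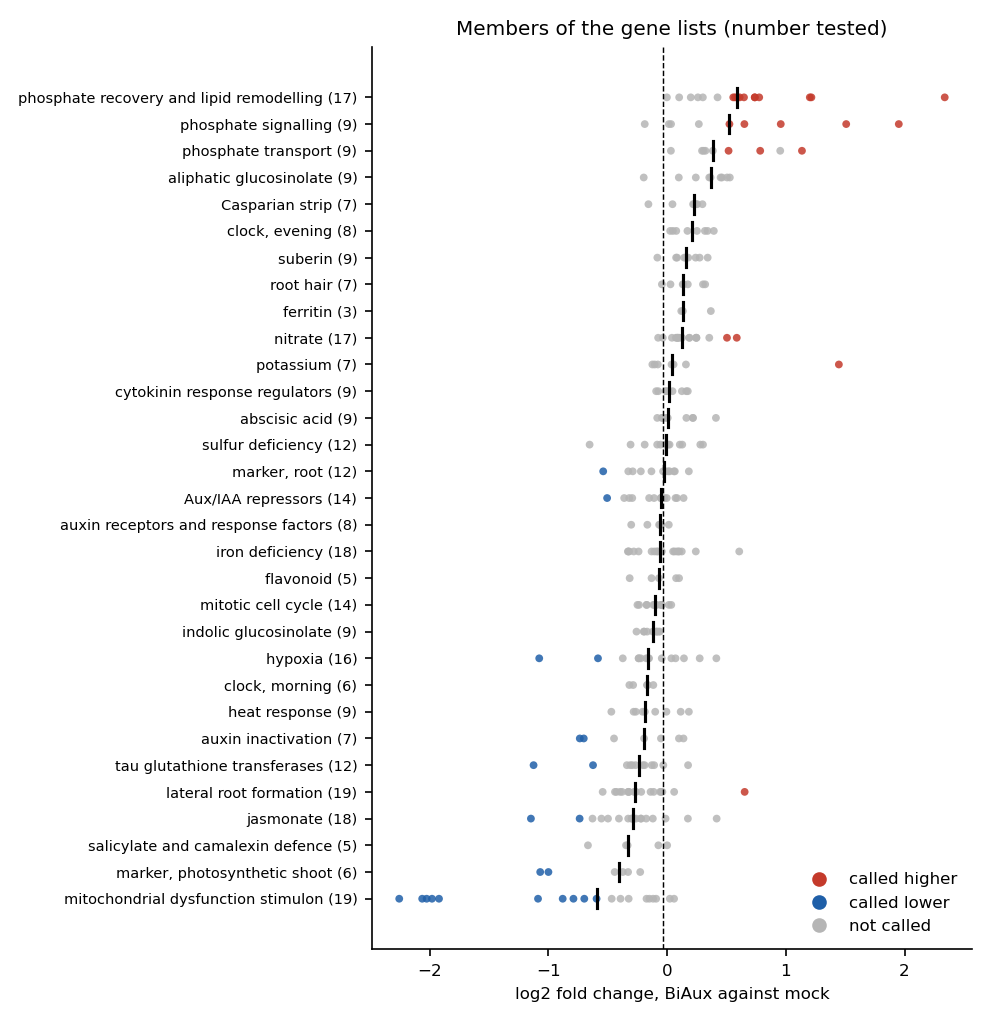
Log2 fold change, BiAux against mock, of each tested member of the gene lists, without the list of L30 copies. The number tested is in brackets, a black bar marks each list's median and a dashed line the median of all tested genes (-0.04). Red and blue points are members called higher and lower, and the 3 phosphate lists (medians 0.59, 0.52 and 0.38) and the mitochondrial dysfunction list (-0.59) stand at the ends.

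The remaining 6 libraries gave the same contrast in the presence of IAA without sharing a library with it. Of the 80 genes called higher, 77 also had a higher mean in BiAux+IAA than in IAA (96.2%, against 46.3% of all tested genes), and of the 191 called lower, 150 had a lower mean there (78.5%, against 53.7%). SPX3 was at 18, 19 and 32 normalized counts in the libraries labelled IAA and at 131, 583 and 207 in those labelled BiAux+IAA. HAK5 was at 173, 163 and 219 against 1102, 2750 and 1265. BiAux+IAA 2, and not number 1, was the highest for both. AT5G24240 was at 1311, 1290 and 1317 against 2865, 2989 and 3149, which is close to its values without IAA. AOX1D of the mitochondrial list was at 21, 30 and 80 in IAA and at 9, 54 and 38 in BiAux+IAA.
Whether the change with BiAux differed by the presence of IAA was tested as an interaction over all 12 libraries with limma. Of 19338 genes 0 had an adjusted p under 0.05 and 1614 an unadjusted p under 0.05, 94 of them among the 271 called genes. The called genes were selected on the change with BiAux alone, which is part of this interaction. The 0 does not show that the response was the same with IAA. AOX1D, AT2G21640 and AT2G04070 differed by -0.26, -0.23 and -0.09 between BiAux+IAA and IAA, less than with BiAux alone. Their means in the libraries labelled IAA, 43.7, 139 and 69 normalized counts, were already below every mock library. A level below mock was thus not particular to BiAux for these genes. DTX1 and BCS1, at -0.94 and -0.68 between BiAux+IAA and IAA, did not differ by less than with BiAux alone. The IAA mean of DTX1, 295, was within its mock range. The smallest adjusted p, 0.0514, belonged to AT5G09570, at 21, 30 and 62 in IAA and 25, 52 and 55 in BiAux+IAA, with an interaction of 2.25 ± 0.27 on the log2 scale. The IAA libraries are among those whose treatment field names another treatment than their title.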

How the data were processed

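Per the labels and the methods of the study, poly(A) RNA of wild-type roots was sequenced, reads were checked with FastQC and counted per gene with HTSeq, and the counts were normalized with edgeR. The labels name CASAVA 1.4 and the aligner HISAT2, whereas the methods name STAR with TAIR10 and Araport11, and strand use in counting is not given in the sources used here, so antisense genes cannot be told apart. The deposited values are log2 values, each the log2 of a whole normalized count plus 1 (tested up to a log2 of 8, where 100% were whole within 0.2), so no reads were recovered and no test made for counts was used.

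The log2 was undone, and a gene was kept when its mean over 12 libraries reached 0.5 CPM, where CPM scales the normalized counts to the median total of 32576201. After adding 0.5 CPM (16.3 normalized counts), log2 values were fitted with limma 3.58.1 (lmFit, eBayes with trend) in R 4.3.3, on the 6 libraries, with the replicate number as a block and Benjamini-Hochberg adjustment over all tested genes. The numbers come from the titles, which do not say what libraries of a number share. The block was set when the comparison was defined, because mock 1 and BiAux 1 deviate together. Every same-numbered pair of deviations correlated above 0.1 (0.78, 0.41 and 0.58). So did mock 2 with BiAux 3 (0.48) and mock 3 with BiAux 2 (0.62). The correlations therefore cannot show that numbers 2 and 3 are rightly paired.

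Named genes are the 12 largest rises and 12 largest falls among called genes with a mean over 5 CPM and the same sign in all 3 pairs, the 3 called genes of smallest adjusted p in each direction, and members of the lists. The comparison, the 32 lists and the members were chosen with earlier results of these data known. RefSeq (TAIR10.1) gave names for 20694 identifiers, and promoters and coding sequences. Python 3.11.15 was used for tables (pandas 2.3.3, numpy 2.4.6) and plots (matplotlib 3.10.9). All 12 libraries of the series are labelled wild type, so the tir1-1 seedlings that the methods name are not covered here.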

Additional observations from a re-analysis of the deposited data

How the results depend on the processing

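With all 6 libraries, 80 genes were higher and 191 lower, and no called named gene changed direction under any alternative that tested it. List members that were not called were not followed in this way. Without number 1 the median of the heat response list went from -0.188 to 0.004, and that of iron deficiency from -0.06 to 0.04. The replicate block decided the counts: with no replicate block they were 4 and 2, 0 phosphate genes were higher in place of 19, and 0 mitochondrial dysfunction genes were lower in place of 10. Of 61 named genes that were called, 5 kept their call without the block, 52 without number 1, 25 without number 2 and 55 without number 3. Leaving out each pair of libraries in turn gave 22 to 133 higher and 88 to 229 lower genes, with 1 to 22 phosphate and 6 to 11 mitochondrial dysfunction genes. With single libraries left out and no block, the ranges were 0 to 4, 1 to 27, 0 to 0 and 0 to 4, the highest without mock 1. At the unadjusted p, where 118 genes were higher and 287 lower, leaving out a pair gave 128 to 192 and 246 to 446, and leaving out a single library with no block gave 63 to 232 and 139 to 538, or, for the BiAux libraries, 74 to 109 and 175 to 233.

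With the spread taken over all 12 libraries the counts were 11 and 51, with 0 phosphate and 4 mitochondrial dysfunction genes. A pseudocount of 2 CPM gave 120 lower genes, and 70 and 125 at the unadjusted p, and 3 genes then had an interaction of BiAux and IAA in place of 0 (0 without the block). A filter at 5 CPM, which tests fewer genes, gave 79 lower genes, 5 mitochondrial dysfunction genes, and 73 and 94 at the unadjusted p. Chosen after seeing the data, a block that sets number 1 against the rest gave 89 and 191, and averaging BiAux 2 and 3 within it gave 59 and 111. The cause of these shifts was not tested. Other pseudocounts, filters and scalings left each count within 1.5 times.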
